A study of Homo sapiens with 65 samples.

Results

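Antigen presentation genes were followed across human embryonic stem cells of the H9 line as these cells were differentiated into endothelium and blood or into endoderm. The set was given as 9 gene names, with no threshold on a measured value in its rule, out of 58302 genes counted. HLA-B, HLA-C and HLA-E encode heavy chains of the MHC class I molecules, B2M the light chain beta-2 microglobulin that all of them share, and TAP1 a subunit of the TAP pump that carries peptides into the endoplasmic reticulum. CIITA encodes the class II transactivator, CD74 the invariant chain that guards the class II groove, and HLA-DRA and HLA-DPA1 the alpha chains of the class II molecules HLA-DR and HLA-DP.

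Total RNA of bulk cells was sequenced as TruSeq libraries, 65 in all, in 19 groups of which 18 held more than 1 library. Every library came from an H9 reporter line that carried mCherry at 1 SOX17 allele and GFP at 1 RUNX1C allele (SOX17 mCHERRY/w RUNX1C GFP/w). The knockout (KO) libraries came from a single derivative of that line, made with CRISPR, in which the DNA-binding domain of RUNX1 had been deleted (RUNX1 -/-), and wild type (WT) below means the parental reporter line. For the KO libraries of days 2 and 4 the titles, and not the genotype field, name the knockout, and the groups follow the titles.

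Endoderm, from the WT line only, was made with activin A, CHIR 99021 and PI-103 on the first day and then with activin A and DMH-1, and was taken unsorted at days 0, 2, 4 and 7 (3 libraries each). Haematopoietic mesoderm was made in STAPEL medium with BMP4, activin A, VEGF, SCF and FGF2, with SB431542 and CHIR 99021 added from day 2 to day 4 and IGF2 joining VEGF, SCF and FGF2 afterwards. KO and WT mesoderm cells were taken unsorted at days 0, 2 and 4 (4 libraries of each line at each day). Later cells were sorted, always as CD34+. At day 7 the CD43- cells were split by the SOX17 reporter into SOX17+ cells (4 KO and 4 WT libraries) and SOX17- cells (3 KO and 4 WT libraries). At day 12 there were SOX17+ CD43- endothelial cells (4 KO and 4 WT libraries), SOX17+ CD43+ cells (2 WT libraries), SOX17- CD43+ blood cells (3 WT libraries) and 1 KO library of SOX17- CD43- cells, which enters no test.

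Class I molecules show peptides made inside the cell, cut by the proteasome and pumped by TAP, on nearly every nucleated cell, and pluripotent stem cells are known for low amounts of them. Class II molecules show peptides taken up from outside, are restricted mainly to professional antigen-presenting cells such as dendritic cells, macrophages and B cells, and depend on CIITA. Interferon-gamma raises both sets in many other cells, endothelium among them, through JAK kinases, IRF1 and the transactivators CIITA and NLRC5.

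Library totals ran between 10366048 and 19081031 counted reads. The pairs of libraries within a group differed by more than counting noise (chi-square per gene 4.47 to 88.2 over 85 pairs), so each library was kept as 1 replicate. The labels do not say that replicates came from separate cultures, so p-values measure the spread between these libraries, and in bulk RNA fewer cells of a type and less RNA per cell cannot be told apart. RUNX1, the targeted gene, had 28.6 to 42.5 counts for each 1000000 reads counted in the library (CPM) in KO and 91.6 to 153 CPM in WT SOX17+ cells of day 7, and 9.10 to 19.8 CPM in KO and 34.3 to 88.1 CPM in WT SOX17+ CD43- cells of day 12. At days 2 and 4 the lines overlapped, with 3.26 to 23.2 CPM in KO and 9.19 to 13.499 CPM in WT cells at day 2, and 2.96 to 64.8 CPM in KO and 27.99 to 65.5 CPM in WT cells at day 4, so RUNX1 does not check the KO titles of those days. A whole-gene count need not fall when 1 domain is deleted, so it is a weak check of the labels in any group. Of the day 12 fractions, the 6 endothelial markers summed to 4319 to 4868 CPM in WT SOX17+ CD43- cells, and the 6 blood markers summed to 2945 to 3266 CPM in SOX17- CD43+ cells. SPN, the gene of CD43, reached 344 to 522 CPM in those blood cells and 1.55 to 3.43 CPM in the WT endothelium. Definitive endoderm markers summed to 2113 to 2442 CPM in day 7 endoderm, against 325 to 512 CPM in the WT SOX17+ cells of day 7.

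The 9 genes lie on GRCh38, in GENCODE 29, on chromosomes 5, 6, 15 and 16, and all are protein coding. Those of the MHC region on chromosome 6 are HLA-E (chr6:30489467-30494205, plus strand), HLA-C (chr6:31268749-31272130, minus), HLA-B (chr6:31269491-31357188, minus), HLA-DRA (chr6:32439842-32445046, plus), TAP1 (chr6:32845209-32853978, minus) and HLA-DPA1 (chr6:33064569-33080775, minus). Outside it lie B2M (chr15:44711487-44718877, plus), CIITA (chr16:10866222-10943021, plus) and CD74 (chr5:150401637-150412929, minus). Counts summed all exons of a gene, and some exon bases are shared: 11.6% of those of CIITA with DEXI on the opposite strand, 17.8% of those of HLA-B with a pseudogene, AL671883.2, and 9.49% of those of TAP1 with PSMB8-AS1. CIITA also shares 11.5% of its exon bases with AC133065.3, which lies on the same strand. The strand setting of the counting is not stated, and reads could be split or lost between near-identical HLA genes, so values of the HLA genes, and of CIITA, are uncertain to that extent.

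Compared per length, as log2(RPKM + 1) averaged over a group, the class I side carried most of the signal. The order of genes depends on the lengths the authors divided by, which were not checked here. Exon bases pooled over all transcripts in GENCODE 29 number 6079 for B2M and 20757 for CIITA, against 2975 for HLA-E and 3184 for CD74. Where such pooled lengths exceed those of the main transcript, a gene ranks too low, and this was not tested. In undifferentiated WT cells of the mesoderm protocol HLA-C stood highest at 5.65, followed by CD74 at 3.97, HLA-E at 3.49, B2M at 2.99, HLA-B at 2.86 and TAP1 at 2.12. In WT SOX17+ cells of day 7 HLA-E was first at 7.52, ahead of B2M at 5.65, HLA-C at 4.41, CD74 at 3.49 and HLA-B at 1.97. In SOX17- CD43+ blood cells of day 12 B2M led at 6.43, with HLA-E at 5.55, CD74 at 5.34, HLA-C at 4.98 and HLA-DRA at 2.57 on the same scale.

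The 18 replicated groups were put in order of their mean CPM for each gene. HLA-B ran between 19.1 ± 2.95 CPM in undifferentiated KO cells and 2.28 ± 0.632 CPM in day 12 blood cells (SD, n = 4 and 3), and in none of the 17 steps of that order did neighbouring groups stand apart. HLA-C was highest in day 2 endoderm (139.6 ± 9.52 CPM, n = 3) and lowest in day 12 KO endothelium (35.7 ± 2.14 CPM, n = 4), with 3 of 17 steps free of overlap, the steps on either side of the day 12 blood cells among them. HLA-E had 5 of 17 such steps: the 6 CD43- sorted groups came first, then SOX17+ CD43+ cells, then SOX17- CD43+ cells, then day 4 mesoderm, then day 2 endoderm, then all others, with no overlap at these 5 borders. B2M had as many, 5, placing SOX17- CD43+ cells alone at the top and day 4 and day 7 endoderm together at the bottom. TAP1 had 2, which set the 3 undifferentiated groups above and the 2 day 4 mesoderm groups below everything else.

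CIITA had a single border, with the means of all sorted groups above it and those of all unsorted groups below. It held between the neighbouring groups only, since sorted and unsorted libraries overlapped. KO day 4 mesoderm replicate 2 had 13.8 CPM, and replicate 3 of the KO SOX17+ cells of day 7 had 13.03 CPM. The whole range of CIITA was narrow, 19.2 ± 1.82 CPM in day 12 WT endothelium (n = 4) at the top and 8.26 ± 0.882 CPM in undifferentiated WT cells (n = 4) at the bottom. CD74 had 4 borders between neighbours in the order of means: SOX17- CD43+ blood cells first, SOX17+ CD43+ cells second, and day 4 and day 7 endoderm last, with day 12 KO endothelium and day 2 endoderm just above them. Groups further apart in that order could still overlap. WT day 4 mesoderm replicate 3, at 67.7 CPM, lay above SOX17+ CD43+ replicate 1 at 62.8 CPM. HLA-DRA had 3, with the means of both day 2 mesoderm groups and the day 12 blood cells at the top and those of the day 4 mesoderm, day 4 endoderm and day 7 endoderm groups at the bottom. Here too KO day 2 mesoderm replicate 1, at 3.91 CPM, lay below KO day 0 replicate 1 at 4.68 CPM. HLA-DPA1 stayed between 3 and 8 CPM in group mean except in day 4 and day 7 endoderm, which formed its 2 borders.

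**Figure D1:**
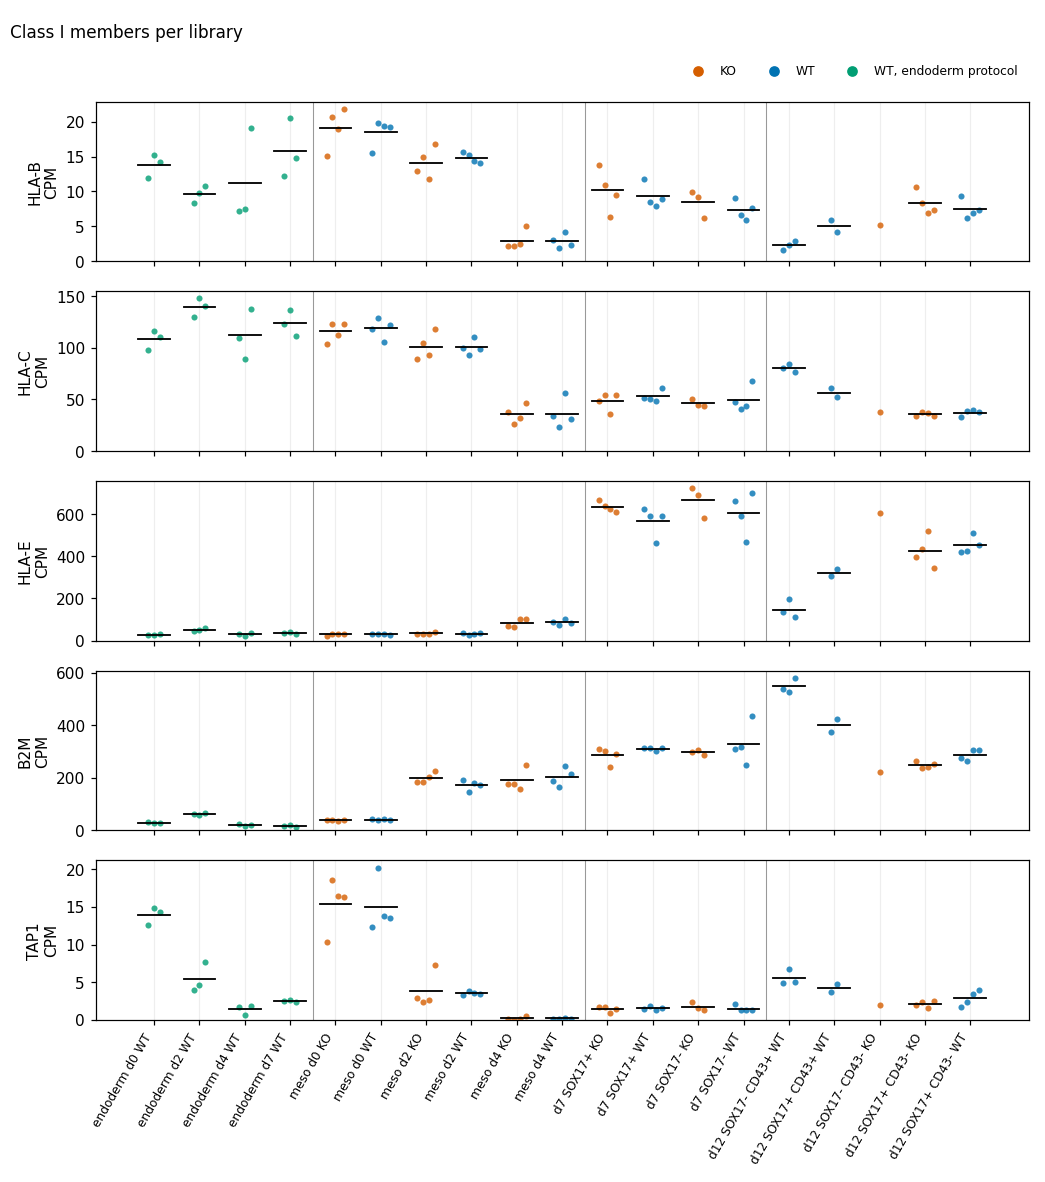
Class I genes HLA-B, HLA-C, HLA-E, B2M and TAP1 in CPM (linear axes from 0) in each library, by group; points are libraries and bars are group means. HLA-E is at 461 to 721 CPM in the day 7 sorted groups and under 110 CPM in every unsorted group, while TAP1 is highest in undifferentiated cells.

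**Figure D2:**
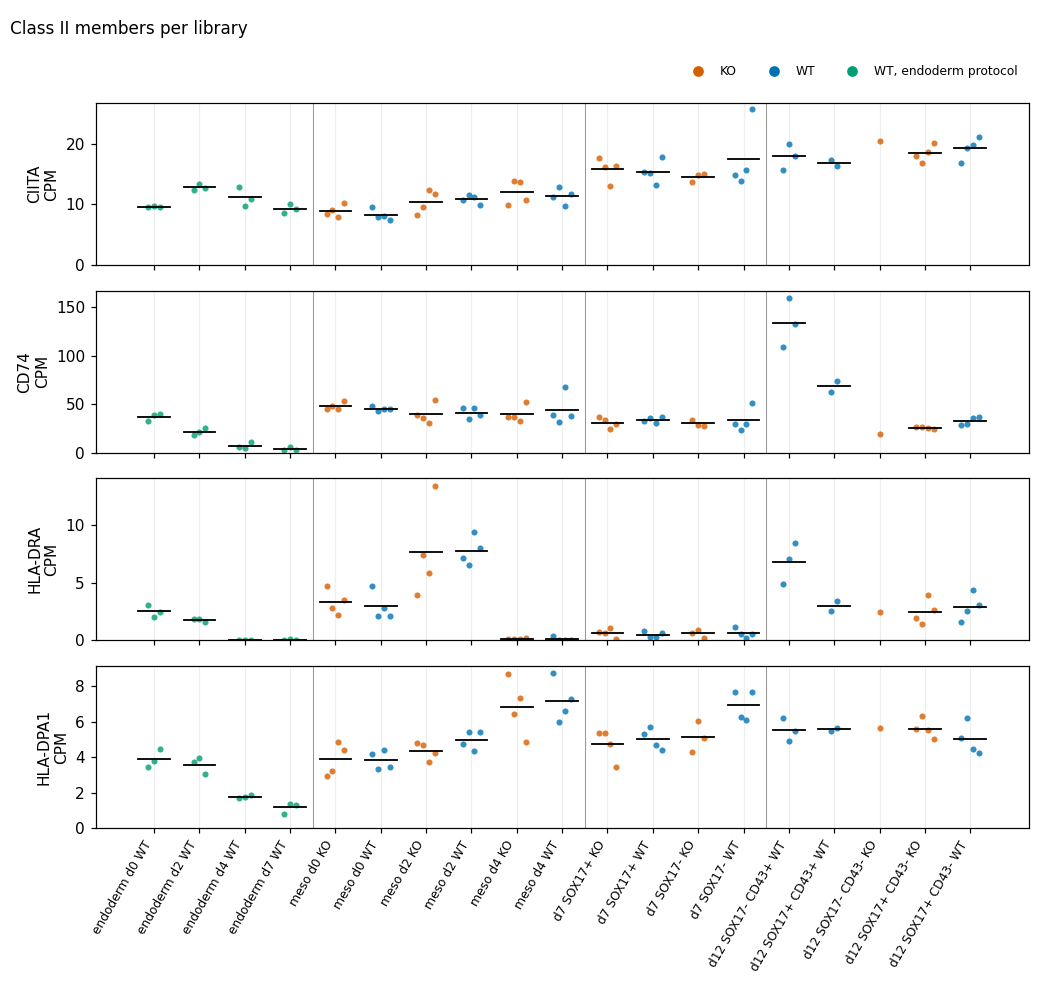
Class II genes CIITA, CD74, HLA-DRA and HLA-DPA1 in CPM (linear axes from 0) in each library, by group; points are libraries and bars are group means. CD74 reaches 109 to 159 CPM in SOX17- CD43+ blood cells of day 12 and is lowest, at 2.76 to 5.29 CPM in day 7 endoderm.

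The first comparison was between days of the mesoderm protocol. By day 2 the light chain gene B2M had risen 4.15-fold while the pump gene TAP1 was 4.28-fold lower in WT cells, and by day 4 HLA-B, HLA-C and TAP1 had fallen while HLA-E had risen. The class I genes went in opposite directions within the same libraries, and each of these changes was called in both lines. Of the 9 genes, 3 passed the test at day 2 against day 0 and 6 at day 4 against day 2, in KO as in WT cells. A gene was called at a Benjamini-Hochberg adjusted p under 0.05 in edgeR's quasi-likelihood test over all genes, and log2 changes below are given ± SE. This test called 43.3% of 21612 genes in KO and 45.1% in WT cells at day 2, and 50.5% in KO and 51.4% in WT cells at day 4. The median absolute log2 change of the 9 genes was 0.29 in KO and 0.34 in WT cells at day 2, against 0.44 and 0.46 over all genes. At day 4 it was 1.35 in KO and 1.45 in WT cells, against 0.52 and 0.53 over all genes.

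B2M had 41.7, 38.7, 43.2 and 39.3 CPM on day 0, 191, 145, 181 and 174 CPM on day 2 and 186, 163, 245 and 215 CPM on day 4 in the 4 WT libraries of each day. Every day 2 library lay above every day 0 library, and days 2 and 4 overlapped. The log2 change at day 2 was 2.32 ± 0.14 (adjusted p = 1.32e-11) in KO and 2.05 ± 0.14 (adjusted p = 7.3e-11) in WT cells. TAP1 had 12.3, 20.2, 13.8 and 13.6 CPM on day 0, 3.25, 3.86, 3.63 and 3.46 CPM on day 2 and 0.175, 0.177, 0.308 and 0.140 CPM on day 4 in WT cells. None of the 3 days overlapped, and at day 4 the 4 WT libraries together held 13 reads of the gene. Its log2 change was -2.10 ± 0.32 (adjusted p = 1.15e-05) at day 2 and -4.09 ± 0.44 (adjusted p = 1.24e-07) at day 4 in WT cells. In KO cells the day 4 change was -4.22 ± 0.44 (adjusted p = 7.9e-08), and -5.13 without KO day 4 replicate 4.

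HLA-B had 15.5, 19.8, 19.4 and 19.2 CPM on day 0, 15.6, 15.2, 14.3 and 14.1 CPM on day 2 and 3.03, 1.95, 4.18 and 2.31 CPM on day 4 in WT cells. Day 4 lay wholly below day 2, with a log2 change of -2.22 ± 0.23 (adjusted p = 5.81e-08) in KO and -2.37 ± 0.23 (adjusted p = 2.46e-08) in WT cells. HLA-C had 118, 129, 106 and 122 CPM on day 0, 100.1, 93.1, 110.1 and 98.9 CPM on day 2 and 33.9, 23.1, 56.4 and 30.8 CPM on day 4 in the same libraries. Again every day 4 library was the lower, with a log2 change of -1.46 ± 0.19 (adjusted p = 1.27e-06) in KO and -1.49 ± 0.19 (adjusted p = 9.7e-07) in WT cells. Neither HLA-B nor HLA-C was called at day 2 against day 0. The HLA-B change there was -0.46 ± 0.21 (adjusted p = 0.0796) in KO and -0.34 ± 0.21 (adjusted p = 0.195) in WT cells. DESeq2 (0.0289), limma (0.0251) and edgeR with the compared groups fitted alone (0.0166) called it in KO cells. In WT cells, edgeR with the compared groups fitted alone called HLA-B (-0.34, adjusted p = 0.0321) and HLA-C (-0.27, adjusted p = 0.0379). HLA-E, a non-classical class I gene whose product is a ligand of receptors on natural killer cells, had 30.01, 31.1, 30.7 and 25.9 CPM on day 0, 36.4, 25.3, 32.8 and 34.97 CPM on day 2 and 90.8, 76.5, 104 and 83.7 CPM on day 4. Days 0 and 2 overlapped and day 4 stood above both, with a log2 change against day 2 of 1.35 ± 0.15 (adjusted p = 1.26e-07) in KO and 1.45 ± 0.15 (adjusted p = 4.93e-08) in WT cells.

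Of the class II genes among the 9, HLA-DRA was called at both steps and HLA-DPA1 at day 4. HLA-DRA had 4.73, 2.12, 2.77 and 2.13 CPM on day 0, 7.12, 6.56, 9.39 and 8.04 CPM on day 2 and 0.408, 0.0590, 0.0615 and 0 CPM on day 4 in WT libraries. The 3 days did not overlap, with day 2 highest and day 4 lowest. The day 4 library without a read has a limit of 0.210 CPM at 3 counts, by counting error only. In WT cells its log2 change was 1.35 ± 0.39 (adjusted p = 0.00765) at day 2 and -5.73 ± 0.56 (adjusted p = 2.61e-08) at day 4, the second of these -7.28 without WT day 4 replicate 1. KO cells gave 1.16 ± 0.39 (adjusted p = 0.0192) and -5.63 ± 0.55 (adjusted p = 3.1e-08) for the same 2 steps, and the first of them lost its call without KO day 0 replicate 2 (adjusted p = 0.051), KO day 0 replicate 3 (0.0615) or KO day 2 replicate 4 (0.12).

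HLA-DPA1 had 4.18, 3.33, 4.41 and 3.45 CPM on day 0, 4.77, 5.40, 4.34 and 5.42 CPM on day 2 and 8.74, 6.01, 6.58 and 7.29 CPM on day 4 in WT cells. Day 4 was above both earlier days, by 0.69 ± 0.19 (adjusted p = 0.00452) against day 2 in KO and 0.53 ± 0.19 (adjusted p = 0.0243) in WT cells. The WT call was lost without the filter on low counts (adjusted p = 0.0613) and without WT day 2 replicate 1 (0.0545), WT day 2 replicate 3 (0.0764) or WT day 4 replicate 1 (0.103). CD74 and CIITA passed at neither step. CD74 had 42.4 to 48.4 CPM on day 0, 34.1 to 45.9 CPM on day 2 and 31.8 to 67.7 CPM on day 4 in WT cells, and the 3 days overlapped. CIITA had 7.49 to 9.52 CPM on day 0, 9.91 to 11.5 CPM on day 2 and 9.72 to 12.9 CPM on day 4 in WT cells, where days 0 and 2 did not overlap and the log2 change was 0.36 ± 0.16 (adjusted p = 0.0647). DEXI, which shares exon bases with it, stood at 11.2 to 12.98, 14.96 to 16.2 and 14.7 to 19.9 CPM on those 3 days, and its part in the CIITA counts was not tested.

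The promoters of these genes are shown because the transcripts behind one molecule, heavy chain, light chain and pump, went different ways. RefSeq promoter windows (GRCh38.p14, 250 bases before the start and 50 after it) were at hand for 6 of the 9 genes. The stretch from 200 bases to 1 base before the start is printed 5′ to 3′ on the gene's own strand for HLA-B (chr6:31357180-31357379, minus strand), HLA-C (chr6:31272093-31272292, minus), B2M (chr15:44711317-44711516, plus), TAP1 (chr6:32853705-32853904, minus) and CD74 (chr5:150412911-150413110, minus). Capitals mark matches, on either strand, to letters known from MHC promoters, which are named after the sequences.
HLA-B: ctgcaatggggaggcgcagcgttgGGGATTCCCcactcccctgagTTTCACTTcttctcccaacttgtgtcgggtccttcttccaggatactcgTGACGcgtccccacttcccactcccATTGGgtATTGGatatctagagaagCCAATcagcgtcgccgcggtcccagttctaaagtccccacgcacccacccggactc
HLA-C: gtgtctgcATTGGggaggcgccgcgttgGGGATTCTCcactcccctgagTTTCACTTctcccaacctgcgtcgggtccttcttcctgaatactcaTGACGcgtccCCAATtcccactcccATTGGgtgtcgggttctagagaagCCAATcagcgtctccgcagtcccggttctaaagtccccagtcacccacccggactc
B2M: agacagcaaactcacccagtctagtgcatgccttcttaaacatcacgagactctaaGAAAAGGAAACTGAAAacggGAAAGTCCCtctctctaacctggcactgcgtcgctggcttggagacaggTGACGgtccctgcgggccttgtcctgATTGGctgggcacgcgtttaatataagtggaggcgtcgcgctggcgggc
TAP1: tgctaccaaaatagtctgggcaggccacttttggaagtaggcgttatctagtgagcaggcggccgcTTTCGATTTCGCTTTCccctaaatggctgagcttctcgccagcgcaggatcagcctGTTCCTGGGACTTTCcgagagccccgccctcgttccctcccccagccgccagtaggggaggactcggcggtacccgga
CD74: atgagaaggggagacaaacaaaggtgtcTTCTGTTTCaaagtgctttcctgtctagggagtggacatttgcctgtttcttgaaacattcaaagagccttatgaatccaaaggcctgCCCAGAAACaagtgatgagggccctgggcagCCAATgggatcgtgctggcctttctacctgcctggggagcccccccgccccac

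The letters searched were GGGATTCNC for the class I enhancer A, GGGACTTTC for a kB site, TTTCNNTT and TTCNNTTTC, which overlap by a shared stretch, for the interferon-stimulated response element, CCCAGNAAC for the X1 box, TGACG for the X2 half-site and CCAAT for the Y box. Of 35116 RefSeq promoter windows of the same length, 0.934% held the enhancer A letters, 0.387% the kB letters, 22.8% TTTCNNTT, 8.11% TTCNNTTTC, 2.18% the X1 letters, 24.6% TGACG and 34.6% CCAAT. HLA-B and HLA-C both held the enhancer A letters (first base at -176 in HLA-B and -172 in HLA-C), TTTCNNTT after them, TGACG and several CCAAT copies, and their windows had 269 identical bases in 304 aligned columns (88.5%). B2M and TAP1 held the kB letters, at -124 in B2M and -72 in TAP1, and each held both interferon forms at 2 places that run into each other. In TAP1 an X1 match on the opposite strand at -78 overlaps the kB letters. CD74 held X1 letters at -84, CCAAT at -53 and TTCNNTTTC at -172. HLA-DPA1, whose sequence is not printed, held the enhancer A letters too, at -61 on the opposite strand in 1 of its 2 windows. That window also held X1 letters at -102, TTCNNTTTC at -192 and TGACG at -241, and its other window held TGACG at -57. Another window of TAP1, not printed, held none of the letters. The sequence is the reference, and that of the H9 line was not read.

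The wider pathway was followed in 3 lists: 15 further class I genes (other heavy chains, proteasome subunits, peptide trimming and loading), 13 further class II genes and 16 regulators. At day 2 against day 0 in WT cells, 2 of 15 class I genes rose and 6 fell, 6 of 12 class II genes rose and 3 fell, and 2 of 16 regulators rose and 5 fell, while 22.2% of all genes were higher and 22.9% lower. In KO cells 1 class I gene, 6 class II genes and 1 regulator rose and 7, 3 and 6 fell, while 21.6% of all genes were higher and 21.7% lower. HLA-DQB1, a beta chain of HLA-DQ, had 138 ± 32.1 CPM on day 2 and 4.58 ± 0.687 CPM on day 0 (log2 change 4.88 ± 0.28, adjusted p = 7.38e-12). CD1D, which presents lipids, had 38.2 ± 0.942 CPM on day 2 and 0.146 ± 0.104 CPM on day 0 (7.87 ± 0.70, adjusted p = 5.26e-09). NLRC5, the class I transactivator, changed by -2.81 ± 0.57 (adjusted p = 0.00034), or -2.12 without WT day 0 replicate 1.

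Of the same lists at day 4 against day 2 in WT cells, 1 class I gene rose and 8 fell of 15, 3 class II genes rose and 7 fell of 12, and 6 regulators rose and 2 fell of 16, while 25.9% of all genes were higher and 25.5% lower. In KO cells 2 class I genes, 3 class II genes and 6 regulators rose and 8, 6 and 2 fell, while 26% of all genes were higher and 24.5% lower. PSMB8, an immunoproteasome subunit, changed by -4.71 ± 0.61 (adjusted p = 1.57e-06), or -6.69 without WT day 4 replicate 3. HLA-DQB1 fell by 3.80 ± 0.26 on the log2 scale (adjusted p = 1.86e-10) and CD1D by 4.62 ± 0.52 (adjusted p = 2.5e-07). The CD1D change was -5.50 without WT day 4 replicate 3. NFYA, a subunit of the factor that binds CCAAT, rose by 0.81 ± 0.16 (adjusted p = 0.000204). Markers of mesenchyme summed to 1390 to 6560 CPM over the KO and 816 to 5571 CPM over the WT libraries of day 4, so these groups differed widely in cell make-up among themselves, and the part of that in the day 4 changes was not tested.

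In the endoderm protocol the light chain gene B2M rose by day 2 and fell by day 4, and CD74, HLA-DRA and HLA-DPA1 had fallen by day 4. Of the 9 genes, 5 passed the test at day 2 against day 0, against 55.5% of 21542 genes, and 6 at day 4 against day 2, against 42.4%. All 6 were lower at day 4. B2M had 30.4, 28.1 and 28.99 CPM on day 0, 61.4, 57.7 and 67.5 CPM on day 2, 23.2, 16.8 and 21.2 CPM on day 4 and 16.8, 19.5 and 14.1 CPM on day 7 in the 3 libraries of each day. Day 2 stood above the other 3 days, and day 4 lay below day 0. The log2 change was 1.04 ± 0.14 (adjusted p = 1.86e-05) at day 2 and -1.48 ± 0.14 (adjusted p = 1.52e-06) at day 4.

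HLA-E had 28.6, 28.4 and 30.6 CPM on day 0, 45.1, 52.8 and 58.9 CPM on day 2, 30.6, 22.3 and 35.3 CPM on day 4 and 35.4, 41.04 and 30.5 CPM on day 7. Day 2 stood above all other days, with log2 changes of 0.79 ± 0.16 (adjusted p = 0.000742) for day 2 against day 0 and -0.71 ± 0.16 (adjusted p = 0.00247) for day 4 against day 2. TAP1 had 12.6, 14.8 and 14.3 CPM on day 0, 3.94, 4.70 and 7.70 CPM on day 2, 1.71, 0.598 and 1.88 CPM on day 4 and 2.56, 2.67 and 2.44 CPM on day 7. Its first 3 days did not overlap and fell in turn, with log2 changes of -1.41 ± 0.27 (adjusted p = 0.000445) and -1.82 ± 0.32 (adjusted p = 0.000404).

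HLA-C had 98.3 to 116 CPM on day 0, 129.6 to 149 CPM on day 2, 89.3 to 138 CPM on day 4 and 111 to 137 CPM on day 7 and was not called at any step. Every day 2 library lay above every day 0 library, and that change, 0.32 ± 0.14 (adjusted p = 0.0645), was called without the filter (adjusted p = 0.0249) and with the 2 days fitted alone (0.00919). Without day 4 replicate 3, the HLA-C changes at day 4 (-0.37, adjusted p = 0.0263) and day 7 (0.43, adjusted p = 0.0232) were called too. HLA-B had 11.96, 15.1 and 14.3 CPM on day 0, 8.40, 9.76 and 10.8 CPM on day 2, 7.21, 7.45 and 19.1 CPM on day 4 and 12.2, 20.4 and 14.8 CPM on day 7, and was not called at any step either. Every day 2 library lay below every day 0 library, and that change, -0.57 ± 0.31 (adjusted p = 0.141), was called without the filter (adjusted p = 0.00544) and with the 2 days fitted alone (0.00524). Replicate 3 of day 4 held the most HLA-B of the 3 at 19.1 CPM, and it carries a library number, 68684, far from the 31999 to 32010 of the other endoderm libraries.

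CD74 had 32.4, 38.99 and 39.6 CPM on day 0, 18.5, 21.6 and 24.9 CPM on day 2, 5.57, 4.52 and 11.3 CPM on day 4 and 3.10, 5.29 and 2.76 CPM on day 7. Each of the first 3 days lay below the one before, with log2 changes of -0.83 ± 0.27 (adjusted p = 0.0165) at day 2 and -1.47 ± 0.29 (adjusted p = 0.000913) at day 4, and the first call was lost without day 2 replicate 1 (adjusted p = 0.0655). HLA-DRA had 3.05, 2.05 and 2.45 CPM on day 0, 1.88, 1.82 and 1.59 CPM on day 2, 0.0633, 0 and 0.0606 CPM on day 4 and 0.0534, 0.105 and 0 CPM on day 7. Days 4 and 7 held 2 and 3 reads in all, and the libraries without a read have limits of 0.199 CPM (day 4) and 0.188 CPM (day 7) at 3 counts. Day 2 over day 4 was 41.9-fold by the counts alone, with a 95% counting interval of 11.3 to 351. The edgeR estimate for day 4 against day 2 was a log2 change of -5.04 ± 0.54 (adjusted p = 5.76e-06). HLA-DPA1 had 3.45, 3.80 and 4.46 CPM on day 0, 3.70, 3.94 and 3.05 CPM on day 2, 1.71, 1.73 and 1.88 CPM on day 4 and 0.801, 1.36 and 1.32 CPM on day 7. Day 4 was below day 2 in every library (-0.88 ± 0.22, adjusted p = 0.0057), and day 7 lay below day 4 in every library without a call (-0.51 ± 0.25, adjusted p = 0.175).

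CIITA had 9.51 to 9.72 CPM on day 0, 12.4 to 13.4 CPM on day 2, 9.77 to 12.9 CPM on day 4 and 8.55 to 10.1 CPM on day 7. Its call at day 2 (0.37 ± 0.13, adjusted p = 0.0295) was lost without the filter (adjusted p = 0.121), with limma (0.0608) and when any 1 of the 6 libraries was left out (0.0501 to 0.0856), and DEXI moved beside it by 0.44 ± 0.14 (adjusted p = 0.0135). At day 7 against day 4, where 21.3% of genes were called, edgeR called none of the 9, 3 had an unadjusted p under 0.05, DESeq2 called 2 and limma none. Without day 4 replicate 3, edgeR called 4: HLA-B (0.60 ± 0.31 with it, 1.23 without it), HLA-C, HLA-E and TAP1, all higher at day 7. The 2 called by DESeq2 were TAP1 (0.99, adjusted p = 0.0188) and CD74 (-0.81, adjusted p = 0.0443). In edgeR the CD74 change was -0.83 ± 0.31 (adjusted p = 0.0773). It was called without the filter (0.000178), without day 4 replicate 2 (0.0238) and without day 7 replicate 2 (0.0261).

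Among the other pathway genes of the endoderm, beta chains of HLA-DR rose at day 4, where HLA-DRA fell. HLA-DRB1 had 7.88 ± 1.32 CPM on day 2, 63.2 ± 19.1 CPM on day 4 and 359 ± 76.6 CPM on day 7 (n = 3 each), and its log2 change was 3.13 ± 0.23 (adjusted p = 1.85e-07) at day 4 and 2.61 ± 0.21 (adjusted p = 1.64e-06) at day 7. HLA-DRB5 changed by 3.48 ± 0.29 (adjusted p = 5.93e-07) and 2.57 ± 0.22 (adjusted p = 2.61e-06). These 2 genes are close copies, so how the reads divide between them is uncertain. HLA-DQB1 rose by 3.52 ± 0.17 (adjusted p = 1.16e-09) at day 2, and CD1D by 6.17 ± 0.28 (adjusted p = 4.98e-09). IRF1, a transcription factor of the interferon response, fell by 2.16 ± 0.28 at day 7 (adjusted p = 8.98e-05). In counts, 3 class I genes rose and 5 fell of 14 at day 2, 3 rose and 6 fell at day 4, and 1 rose and 1 fell at day 7. The 11 class II genes gave 5 up and 2 down at day 2, 3 up and 5 down at day 4 and 2 up and 4 down at day 7, and the 14 regulators 3 up and 4 down, 4 up and 2 down, and 1 up and 2 down at the same 3 steps. Over all genes 28.7% were higher and 26.8% lower at day 2, 22.2% were higher and 20.2% lower at day 4, and 11.2% were higher and 10.1% lower at day 7.

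The change from day 0 was then compared between the protocols, endoderm minus mesoderm in WT cells. By day 4 the protocols had parted for 7 of the 9 genes, against 40.4% of 22664 genes. Relative to mesoderm, the endoderm change was higher for HLA-B, HLA-C and TAP1 and lower for HLA-E, B2M, CD74 and HLA-DPA1. The difference of log2 changes was 2.49 ± 0.38 (adjusted p = 2.53e-05) for HLA-B, or 1.87 without endoderm day 4 replicate 3. The HLA-C difference was 1.88 ± 0.27 (adjusted p = 1.16e-05) and that of TAP1 2.95 ± 0.48 (adjusted p = 4.8e-05), which was not called by limma on log2 RPKM (adjusted p = 0.0555). In the other direction it was -2.73 ± 0.19 (adjusted p = 5.53e-10) for B2M, -2.22 ± 0.35 (adjusted p = 3.54e-05) for CD74, -1.92 ± 0.27 (adjusted p = 7.16e-06) for HLA-DPA1 and -1.48 ± 0.21 (adjusted p = 1.15e-05) for HLA-E.

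At day 2 the difference passed for 3 of 9 genes, against 29.5%: 0.69 ± 0.21 (adjusted p = 0.0186) for HLA-E, -1.002 ± 0.18 (adjusted p = 0.000386) for B2M and -1.89 ± 0.52 (adjusted p = 0.00949) for HLA-DRA. The HLA-E call was lost without endoderm day 2 replicate 3 (adjusted p = 0.0584). HLA-DRB1 differed by 3.25 ± 0.28 (adjusted p = 1.13e-08) at day 4. Of the lists, 2 of 15 class I genes were higher and 2 lower in endoderm at day 4, 4 of 12 class II genes higher and 2 lower, and 4 of 16 regulators higher and 3 lower, with 2 and 2, 1 and 4, and 4 and 2 at day 2. Over all genes 15.5% were higher and 13.9% lower at day 2, and 20.5% were higher and 19.9% lower at day 4. The libraries of the 2 protocols bear numbers from separate runs, 31999 to 32010 (68684 for day 4 replicate 3) in endoderm and 31264 to 31323 in mesoderm, each with its own day 0, and protocol and number run cannot be told apart.

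**Figure D3:**
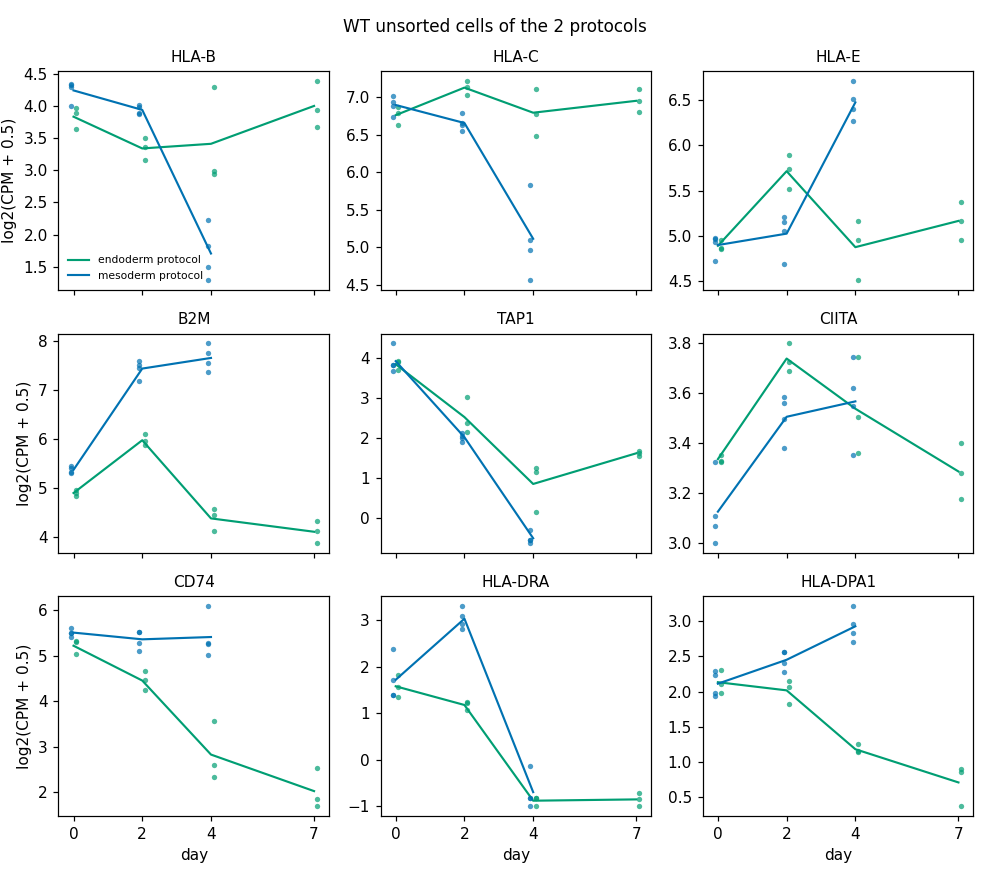
The 9 genes in WT cells as log2(CPM + 0.5) against day, endoderm in green and unsorted mesoderm in blue; points are libraries and lines join group means. At day 4 endoderm lies above mesoderm for HLA-B, HLA-C and TAP1 and below it for HLA-E, B2M, CD74 and HLA-DPA1.

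In sorted SOX17+ CD34+ CD43- cells of day 7, against unsorted mesoderm of day 4, both WT, HLA-E rose 6.17-fold, TAP1 7.16-fold and HLA-B 3.13-fold. Of 8 genes with enough reads to test, 6 were called, against 62.8% of 20028 genes. HLA-E had 623, 593, 461 and 589 CPM on day 7 and 90.8, 76.5, 104 and 83.7 CPM on day 4, with no overlap (log2 change 2.63 ± 0.13, adjusted p = 2.43e-07). TAP1 had 1.41, 1.86, 1.29 and 1.59 CPM on day 7 and 0.175, 0.177, 0.308 and 0.140 CPM on day 4 (2.84 ± 0.31, adjusted p = 2.55e-05). HLA-B had 11.8, 8.54, 7.98 and 8.99 CPM on day 7 and 3.03, 1.95, 4.18 and 2.31 CPM on day 4 (1.65 ± 0.24, adjusted p = 0.000178). Neither of these overlapped between the days. B2M rose by 0.57 ± 0.12 (adjusted p = 0.00162) and HLA-DPA1 fell by 0.56 ± 0.17 (adjusted p = 0.0166), while the CIITA call (0.38 ± 0.14, adjusted p = 0.0369) was lost without the filter (0.104), with limma (0.0788) and without any 1 of 6 of the 8 libraries (0.058 to 0.11). HLA-C was not called (0.51 ± 0.22, adjusted p = 0.0665), but DESeq2 (0.049) and limma (0.0491) called it, and without WT day 4 replicate 3 its change was 0.77 (adjusted p = 0.000601). CD74 was not called either (-0.42 ± 0.20, adjusted p = 0.0929) and passed without the filter (0.0465) or without WT day 4 replicate 2 (0.0348).

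TAPBP, which encodes tapasin, had 78.5 ± 5.49 CPM on day 7 and 9.29 ± 2.79 CPM on day 4 (3.04 ± 0.18, adjusted p = 6.62e-07), TAP2, the partner of TAP1, rose by 2.50 ± 0.27 (adjusted p = 2.51e-05), and IRF1 by 2.91 ± 0.30 (adjusted p = 1.83e-05). In all, 6 of 12 class I genes rose and 3 fell, 5 of 12 class II genes rose and 4 fell, and 6 of 14 regulators rose and 2 fell, while 31.7% of all genes were higher and 31.1% lower. Sorting, day and library number (68685 to 68723 in the sorted libraries) all differ between these groups and cannot be told apart.

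At day 7 the SOX17 reporter split the CD34+ CD43- cells without a called difference in any of the 9 genes. The SOX17 transcript itself was lower in the SOX17- fractions and not absent, at 177 to 237 CPM in SOX17+ and 52.5 to 71.1 CPM in SOX17- KO cells, and 154 to 230.1 CPM in SOX17+ and 32.1 to 70.8 CPM in SOX17- WT cells. In KO cells 0.67% of 22978 genes differed and in WT cells 1.6%. edgeR, DESeq2 and limma called none of the 9 in either line, and 0 of 9 in KO and 1 of 9 in WT cells had an unadjusted p under 0.05. The 1 was HLA-DPA1, with 5.32, 5.69, 4.69 and 4.40 CPM in SOX17+ and 7.67, 6.25, 6.08 and 7.70 CPM in SOX17- WT cells, which did not overlap (-0.48 ± 0.16, adjusted p = 0.179). HLA-E had 623, 593, 461 and 589 CPM in SOX17+ and 659.7, 590.4, 466 and 701 CPM in SOX17- WT cells, which overlapped. B2M likewise had 314, 313, 301 and 312 CPM in SOX17+ and 311, 316, 248 and 436 CPM in SOX17- WT cells. Of the pathway lists, HLA-DMB alone was called in KO cells, where limma did not call it and 0.348% of all genes were higher and 0.322% lower, and no gene in WT cells.

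Endoderm and SOX17+ endothelium of day 7, both SOX17-expressing and both WT, differed in all 8 genes that could be tested, against 71.6% of 21165 genes. HLA-E had 35.4, 41.04 and 30.5 CPM in endoderm and 623, 593, 461 and 589 CPM in endothelium (-3.74 ± 0.15, adjusted p = 4.38e-10). B2M had 16.8, 19.5 and 14.1 CPM in endoderm and 314, 313, 301 and 312 CPM in endothelium (-3.95 ± 0.13, adjusted p = 6.26e-11). CD74 had 3.10, 5.29 and 2.76 CPM in endoderm and 32.6, 36.1, 30.5 and 36.5 CPM in endothelium (-2.93 ± 0.20, adjusted p = 7.26e-08). These 3 genes were lower in endoderm in every library, by 13.3-fold for HLA-E, 15.5-fold for B2M and 7.61-fold for CD74 in the fit.

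HLA-C went the other way, with 123, 137 and 111 CPM in endoderm and 51.3, 50.9, 48.3 and 61.1 CPM in endothelium (1.48 ± 0.11, adjusted p = 1.23e-07). HLA-B (1.02 ± 0.19, adjusted p = 0.000452) and TAP1 (0.98 ± 0.22, adjusted p = 0.00148) were higher in endoderm too, and CIITA (-0.48 ± 0.14, adjusted p = 0.00878) and HLA-DPA1 (-1.86 ± 0.24, adjusted p = 1.82e-05) lower, none of them with overlapping groups. DEXI, which shares exon bases with CIITA, differed by -0.42 ± 0.14 (adjusted p = 0.0208). HLA-DRA was too low to test, at 3 reads in endoderm and 31 in endothelium, a ratio of endothelium over endoderm of 8.33 with a 95% counting interval of 2.60 to 42.6. Of the lists, 3 of 12 class I genes were higher and 6 lower in endoderm, 4 of 12 class II genes higher and 6 lower, and 2 of 14 regulators higher and 9 lower, while 35.3% of all genes were higher and 36.3% lower. TAP2 differed by -3.70 ± 0.17 (adjusted p = 1.32e-09), PSMB8 by -3.32 ± 0.37 (adjusted p = 5.16e-06) and IRF1 by -4.13 ± 0.21 (adjusted p = 4.35e-09). The 2 protocols again come from separate runs of library numbers, and protocol and run cannot be told apart.

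At day 12 the blood cells carried more of 5 of the genes than the endothelium and less of HLA-B and HLA-E. Set against SOX17+ CD43- endothelium, both WT, SOX17- CD43+ cells had 4.07-fold more CD74 and between 1.89-fold and 2.35-fold more B2M, TAP1, HLA-C and HLA-DRA, while HLA-B was 3.28-fold and HLA-E 3.11-fold lower. Of the 9 genes 7 were called, 5 higher and 2 lower, against 66.2% of 22978 genes. Their median absolute log2 difference was 1.10, against 0.81 over all genes. CD74 had 109, 159 and 132 CPM in SOX17- CD43+ cells, 62.8 and 73.6 CPM in SOX17+ CD43+ cells and 28.7, 28.96, 35.9 and 36.5 CPM in SOX17+ CD43- cells. The 3 fractions did not overlap, and the double positive cells stood between the others. The log2 difference was 2.03 ± 0.19 (adjusted p = 3.25e-10) between SOX17- CD43+ and SOX17+ CD43- cells, 1.01 ± 0.21 (adjusted p = 0.000621) between SOX17+ CD43+ and SOX17+ CD43- cells, and 1.02 ± 0.23 (adjusted p = 0.000906) between SOX17- and SOX17+ cells within CD43+.

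HLA-E took the opposite order, with 134, 196 and 111 CPM in SOX17- CD43+ cells, 307 and 339 CPM in SOX17+ CD43+ cells and 420.3, 427, 509 and 453 CPM in SOX17+ CD43- cells, again without overlap. The blood cells differed from the endothelium by -1.64 ± 0.17 (adjusted p = 2.16e-09) on the log2 scale, and from the double positive cells by -1.09 ± 0.19 (adjusted p = 3.89e-05). HLA-B had 1.60, 2.38 and 2.85 CPM in SOX17- CD43+ cells, 5.95 and 4.18 CPM in SOX17+ CD43+ cells and 9.41, 6.21, 6.94 and 7.30 CPM in SOX17+ CD43- cells. Its lowest values were those of the blood cells (-1.71 ± 0.27 (adjusted p = 2.7e-06) against endothelium, -1.10 ± 0.31 (adjusted p = 0.00677) within CD43+).

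HLA-C, whose promoter shares most of its bases with that of HLA-B, had 80.4, 84.3 and 76.8 CPM in SOX17- CD43+ cells, 60.9 and 52.2 CPM in SOX17+ CD43+ cells and 33.1, 38.6, 39.3 and 38.2 CPM in SOX17+ CD43- cells. It was higher in the blood cells than in endothelium in every library (1.10 ± 0.15, adjusted p = 2.88e-07). B2M had 536, 528 and 579 CPM in SOX17- CD43+ cells, 376 and 424 CPM in SOX17+ CD43+ cells and 274, 263, 307 and 306 CPM in SOX17+ CD43- cells, with no overlap (0.92 ± 0.13, adjusted p = 5.95e-07 between the first and the last). TAP1 had 4.93, 6.70 and 5.05 CPM, 3.69 and 4.76 CPM and 1.73, 2.33, 3.44 and 3.92 CPM in the same 3 fractions, where the last 2 overlapped (0.95 ± 0.26, adjusted p = 0.00201 between the first and the last).

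HLA-DRA had 4.86, 7.06 and 8.50 CPM in SOX17- CD43+ cells, 2.53 and 3.44 CPM in SOX17+ CD43+ cells and 1.62, 2.52, 4.35 and 3.04 CPM in SOX17+ CD43- cells. The blood cells were higher than the endothelium (1.23 ± 0.40, adjusted p = 0.00806), a call lost without SOX17- CD43+ replicate 3 (adjusted p = 0.0532). CIITA, the transactivator of these genes, had 15.7, 20.04 and 18.1 CPM in SOX17- CD43+ and 16.8, 19.3, 19.8 and 21.1 CPM in SOX17+ CD43- cells, which overlapped (-0.11 ± 0.17, adjusted p = 0.574). HLA-DPA1 had 6.21, 4.93 and 5.47 CPM in SOX17- CD43+ and 5.07, 6.21, 4.46 and 4.26 CPM in SOX17+ CD43- cells and was not called either (0.14 ± 0.18, adjusted p = 0.516). DEXI, which shares exon bases with CIITA, had 13.9 to 15.3 CPM in SOX17- CD43+ and 19.9 to 25.4 CPM in SOX17+ CD43- cells, without overlap. The part of DEXI in the CIITA counts was not tested.

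For the 2 libraries of SOX17+ CD43+ cells, 4 of 9 genes were called against endothelium (26.5% of genes) and 5 of 9 were called between the CD43+ fractions, SOX17- against SOX17+ (37.5%). Against endothelium, the CD74 call alone of the 4 held in every alternative tried. Those of HLA-C (0.54 ± 0.17, adjusted p = 0.0168), HLA-E (-0.55 ± 0.19, adjusted p = 0.0288) and B2M (0.42 ± 0.15, adjusted p = 0.0343) each ended when some single endothelial library was left out. Adjusted p then reached 0.0677, 0.0538 and 0.108. The B2M call also ended without the filter (0.0624) and with limma (0.0673). Without SOX17+ CD43+ replicate 1 the log2 differences were 0.39 for HLA-C, -0.51 for HLA-E and 0.47 for B2M. Without replicate 2 they were -0.65 for HLA-E and 0.30 for B2M. Within CD43+ cells the call of HLA-B ended without SOX17+ CD43+ replicate 1 (0.143), that of HLA-C (0.56 ± 0.18, adjusted p = 0.0164) without replicate 2 (0.139) and that of B2M (0.50 ± 0.16, adjusted p = 0.0137) without replicate 1 (0.125). HLA-DRA missed the threshold within CD43+ (1.25 ± 0.50, adjusted p = 0.0516) and passed it with other size factors, without the filter, with DESeq2, with limma, with the compared groups alone, with the block for library numbers and without SOX17- CD43+ replicate 1.

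**Figure D4:**
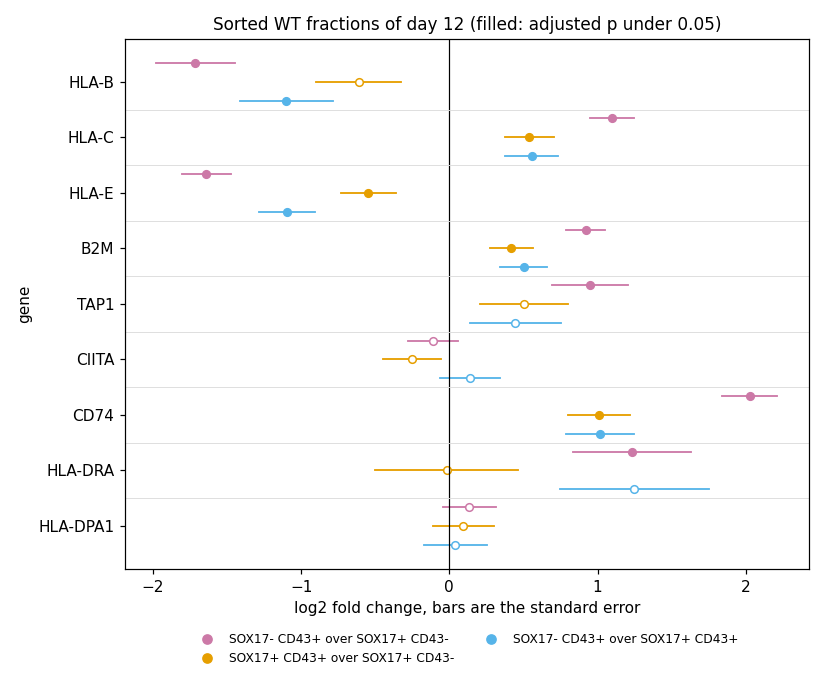
Log2 fold change of the 9 genes in 3 comparisons of the day 12 WT fractions, by edgeR; bars are 1 SE and filled points are genes called at an adjusted p under 0.05. CD74 is higher and HLA-E lower in all 3 comparisons, while CIITA and HLA-DPA1 are called in none.

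Many regulators and class I pathway genes were higher in the blood cells as well. Of the regulators 10 of 16 were higher and 1 lower in SOX17- CD43+ cells than in endothelium, of the class I genes 8 of 13 higher and 1 lower, and of the class II genes 4 of 12 higher and 5 lower, while 32.3% of all genes were higher and 33.9% lower. The median log2 difference was 0.45 in the regulators, 0.38 in the class I and -0.06 in the class II list, against -0.02 over all genes. IRF8, a transcription factor of myeloid cells and B cells, had 179.6 ± 40.04 CPM in SOX17- CD43+ and 0.178 ± 0.0883 CPM in SOX17+ CD43- cells (9.88 ± 0.32, adjusted p = 2.79e-19). CTSS, the protease that cuts the invariant chain, had 46.2 ± 9.73 CPM and 0.521 ± 0.106 CPM in the same fractions (6.45 ± 0.36, adjusted p = 1.12e-14). NLRC5 was higher by 3.10 ± 0.31 (adjusted p = 1.17e-09), the interferon-gamma receptor chain IFNGR1 by 2.64 ± 0.17 (adjusted p = 1.18e-13) and the immunoproteasome subunit PSMB10 by 2.23 ± 0.15 (adjusted p = 8.29e-13). In SOX17+ CD43+ cells 6 of 16 regulators were higher than in endothelium and none lower, with IRF8 at 7.19 ± 0.34 (adjusted p = 6.04e-15) and CTSS at 4.78 ± 0.38 (adjusted p = 1.94e-10). Class I genes there counted 3 higher and 1 lower of 13, and class II genes 4 higher and 1 lower of 12, while 15.5% of all genes were higher and 10.9% lower. Within CD43+ cells 4 class I genes, 3 class II genes and 5 regulators were higher and 1, 2 and 0 lower in SOX17- than in SOX17+ cells, while 14.6% of all genes were higher and 22.9% lower.

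Marker lists of monocytes and macrophages, megakaryocytes, and mast cells and basophils summed higher in both CD43+ fractions than in the endothelium, that of dendritic cells did so through some of its genes, and that of B cells was not higher. All 7 monocyte and macrophage markers averaged over 1 CPM in SOX17- CD43+ cells, where they summed to 792 to 1223 CPM, and in SOX17+ CD43+ cells, at 303 to 450 CPM, against 4 of 7 and 16.99 to 28.4 CPM in the WT endothelium, where C1QA had no read. Dendritic cell markers summed to 93.6 to 215 CPM, 13.7 to 22.1 CPM and 2.16 to 4.23 CPM in those 3 fractions, with 3, 4 and 2 of 6 markers averaging over 1 CPM. Most of the first sum was CD1C (102 CPM on average) and CLEC10A (35.9 CPM), which had no read and 1 read in the endothelium. CLEC9A went the other way, at 0.183 CPM in SOX17- CD43+ cells, 1.183 CPM in SOX17+ CD43+ cells and 2.18 CPM in the endothelium, and XCR1 was at or near 0 in all 3. B cell markers summed to 4.10 to 4.38 CPM, 6.64 to 8.94 CPM and 6.90 to 12.9 CPM, lowest in the blood cells, with CD22 at 0.365 CPM in SOX17- CD43+ cells and 9.13 CPM in the endothelium, and MS4A1 at or near 0 throughout. Megakaryocyte markers summed to 152 to 269 CPM, 82.9 to 86.1 CPM and 6.24 to 9.25 CPM in the same order as the sums before. Mast cell and basophil markers summed to 143 to 162 CPM, 70.3 to 73.6 CPM and 43.6 to 55.4 CPM in that order. Most of each sum was GATA2, which averaged 110.9, 68.5 and 50.6 CPM. HDC averaged 26.01 CPM and CPA3 12.7 CPM in SOX17- CD43+ cells, against no read of HDC and 1 read of CPA3 in the endothelium. TPSAB1 was at or near 0 in all 3 fractions, and MS4A2 averaged 1.02, 0.547 and 0.784 CPM. The mitochondrial share of reads was 8.37% to 8.85% in SOX17- CD43+ cells, 6.46% to 7.23% in SOX17+ CD43+ cells and 4.25% to 5.24% in the endothelium. The part of these in the differences was not tested.

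Against the SOX17- CD43- cells of day 7, SOX17- CD43+ cells of day 12 had 7 of 9 genes called (62.9% of all genes) and share their blood libraries with the comparison against day 12 endothelium. TAP1 (1.88 ± 0.27, adjusted p = 9.61e-07) and HLA-DRA (3.41 ± 0.46, adjusted p = 3.62e-07) were among them. HLA-E differed by -2.03 ± 0.17 (adjusted p = 5.27e-11) and CD74 by 2.02 ± 0.19 (adjusted p = 3.97e-10). Among the lists, 9 class I genes were higher and 1 lower of 13, 3 class II genes higher and 5 lower of 12, and 9 regulators higher and none lower of 16, while 30% of all genes were higher and 33% lower.

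Within the SOX17+ CD43- endothelium, HLA-DRA rose with time in both lines. It had 1.91, 1.44, 3.92 and 2.63 CPM on day 12 and 0.689, 0.653, 1.04 and 0.115 CPM on day 7 in KO cells (2.03 ± 0.47, adjusted p = 0.00323), and 1.62, 2.52, 4.35 and 3.04 CPM on day 12 and 0.769, 0.248, 0.269 and 0.611 CPM on day 7 in WT cells (2.65 ± 0.48, adjusted p = 0.000219). Days 12 and 7 did not overlap in either line. Of the 9 genes 3 were called in KO cells (against 13.3% of genes) and 3 in WT cells (against 17.8%). HLA-C was lower at day 12 in both, with a change of -0.42 ± 0.14 (adjusted p = 0.0447) in KO cells, and 33.1, 38.6, 39.3 and 38.2 CPM on day 12 and 51.3, 50.9, 48.3 and 61.1 CPM on day 7 in WT cells (-0.46 ± 0.14, adjusted p = 0.0202). The WT call ended without day 12 replicate 1 (adjusted p = 0.0779) or day 7 replicate 4 (0.0896), and the KO call ended without the filter (0.0579), with limma (0.0845) or without any of 7 of the 8 libraries (0.0636 to 0.145).

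HLA-E fell in KO cells (-0.57 ± 0.15, adjusted p = 0.00832), with 395, 435, 518 and 344 CPM on day 12 and 668, 639.7, 625 and 608 CPM on day 7, and its call ended without day 12 replicate 4 (0.0514). In WT cells it was not called (-0.28 ± 0.15, adjusted p = 0.201). TAP1 rose in WT cells, with 1.73, 2.33, 3.44 and 3.92 CPM on day 12 and 1.41, 1.86, 1.29 and 1.59 CPM on day 7 (0.93 ± 0.26, adjusted p = 0.0133), a call that ended without day 12 replicate 3 (0.0553) or 4 (0.0656). In KO cells TAP1 was not called (0.57 ± 0.27, adjusted p = 0.184). The difference between the lines in the change between days 7 and 12 was called for none of the 9 genes. Around them HLA-DMB, part of the editor that loads peptides on class II molecules, rose in both lines, by 1.24 ± 0.24 (adjusted p = 0.00071) in KO and 1.81 ± 0.25 (adjusted p = 7.56e-06) in WT cells, and HLA-DQB1 fell, by 1.44 ± 0.26 (adjusted p = 0.000332) in KO and by 1.79 ± 0.27 (adjusted p = 2.12e-05) in WT cells. In KO cells 1 class II gene rose and 5 fell of 12, no class I gene was called and 1 regulator rose, while 6% of all genes were higher and 7.29% lower. In WT cells 1 class II gene rose and 6 fell, 1 class I gene rose and 3 regulators rose, while 8.57% of all genes were higher and 9.23% lower.

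No gene of the 9 was called between KO and WT cells. Across the 6 comparisons of KO with WT cells (days 0, 2 and 4, SOX17+ and SOX17- cells of day 7 and SOX17+ CD43- cells of day 12) there were 54 log2 differences, all between -0.43 and 0.40. edgeR, DESeq2 and limma called none of them, and 1 of 54 had an unadjusted p under 0.05. Few genes of any kind were called: 0% at days 0, 2 and 4, 0.0566% in SOX17+ and 0.0087% in SOX17- cells of day 7, and 0.187% at day 12. At an unadjusted p under 0.05 there were 146, 973 and 987 of 21612 genes at days 0, 2 and 4, and 860, 1094 and 707 of 22978 in the other 3 comparisons.

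The 1 value was that of HLA-DPA1 in the SOX17- cells of day 7, with 4.30, 6.02 and 5.08 CPM in KO and 7.67, 6.25, 6.08 and 7.70 CPM in WT cells (-0.43 ± 0.18, adjusted p = 0.878). All 3 KO libraries were below all 4 WT libraries. CD74 likewise did not overlap in the endothelium of day 12, with 26.3, 26.8, 25.2 and 24.3 CPM in KO and 28.7, 28.96, 35.9 and 36.5 CPM in WT cells (-0.34 ± 0.18, adjusted p = 1), and its 95% interval was -0.69 to 0.00. B2M in the same cells had 264, 237, 240.4 and 251 CPM in KO and 274, 263, 307 and 306 CPM in WT libraries, which just overlapped (-0.21 ± 0.12, adjusted p = 1). HLA-E had 668, 639.7, 625 and 608 CPM in KO and 623, 593, 461 and 589 CPM in WT SOX17+ cells of day 7, with an interval of -0.10 to 0.48 around a log2 difference of 0.19. For CIITA in the SOX17+ cells the interval was -0.24 to 0.37 at day 7 and -0.37 to 0.24 at day 12. At day 4, TAP1 with 12 reads in KO and 13 in WT libraries had an interval of -1.24 to 1.15, and HLA-DRA with 9 reads in each had -1.59 to 1.69, so a difference was not detectable there at this depth.

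The difference of KO from WT was also compared between days 12 and 7 in SOX17+ cells (0.00435% of genes called), and the SOX17 difference of day 7 between KO and WT cells (0%). For both, edgeR, DESeq2 and limma called none of the 9, none had an unadjusted p under 0.05, and no gene of the 3 pathway lists was called. At an unadjusted p under 0.05 there were 561 genes in the first and 240 in the second of 22978. No CD43+ library of the KO line was analysed here, so the blood fractions have no KO counterpart.

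**Figure D5:**
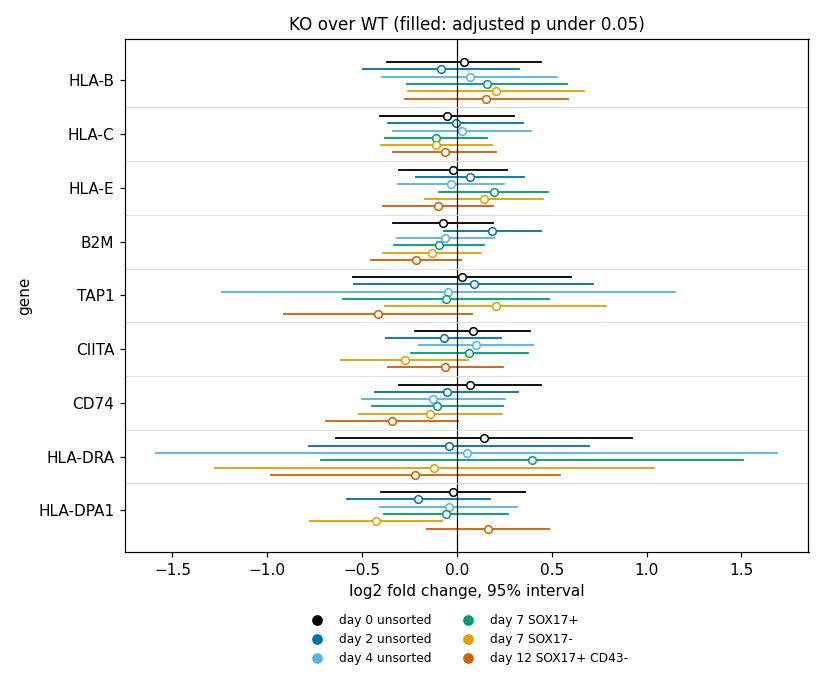
Log2 fold change, KO over WT, of the 9 genes in the 6 comparisons; points are edgeR estimates and bars their 95% intervals. All 54 estimates lie within 0.5 of 0 and no gene is called.

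Genes of like pattern were sought over the 18 replicated groups among 17460 genes, by Pearson's r of the mean log2 CPM, as a description. Most like CD74 were TSEN15 (r = 0.969), ING3 (0.964) and COG2 (0.959), all highest in the SOX17- CD43+ blood cells. Most like HLA-B were AL929236.1 (0.946), PTPN14 (0.945) and DDX25 (0.939). Most like HLA-E were CFAP161 (0.992), PML (0.990) and CDKL1 (0.989), all highest in a sorted group of day 7. Among the 9 genes themselves, group means of HLA-B and HLA-C correlated at 0.636, HLA-E and CIITA at 0.872, B2M and HLA-DPA1 at 0.818, and HLA-C and HLA-E at -0.772. The groups share line, kit and counting, and those of one protocol their library numbers.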

How the data were processed

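Deposited were whole-number counts per gene, made by the authors with featureCounts after trimming with cutadapt 1.18 on GRCh38, with R 3.2.2 also named, per the submitters' processing notes. The aligner, annotation release and strand setting were not given in the sources used here. A second deposited table holds the authors' log2 RPKM values, which were used for levels between genes and as an alternative scale; it understates changes of low genes. Gene names were taken from GENCODE 29, which named 58039 of 58302 genes.

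CPM are counts for each 1000000 of the library total (10366048 to 19081031 counts), and their precision is limited by these depths. Tests used edgeR 4.0.16 (quasi-likelihood, TMM factors, filterByExpr with at least 10 counts in enough libraries and 15 in total) in R 4.3.3. There were 6 fits with 27 comparisons: 24 unsorted mesoderm libraries (21612 genes kept), 12 endoderm libraries (21542), 21 WT libraries of days 0, 2 and 4 (22664), 28 sorted libraries (22978), and 2 fits of 8 (20028) and 7 (21165) libraries for the day 7 comparisons across protocols or stages. P-values were adjusted by Benjamini-Hochberg over all genes of a fit, and called under 0.05. HLA-DRA failed the filter in the fits of 8 and 7 libraries; elsewhere all 9 genes were tested. The SE is the absolute log2 fold change over the square root of F, and 95% intervals are normal ones. Ratios of genes with few reads have exact counting intervals, which cover counting error only. The scripts were tested on simulated data.

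The genes, though given by name, and the pathway and marker lists were chosen with earlier results of these data known. Named were all 9 genes and, from each pathway list, up to 4 called genes of largest absolute change, of which those whose call ended under an alternative were left to the counts and some are not reported here; genes of like pattern were the 3 of highest r for CD74, HLA-B and HLA-E among genes with at least 5 CPM in a group. Alternatives were RLE size factors, no filter, DESeq2 1.42.0, limma 3.58.1 with a trend on log2 RPKM, the compared groups alone, a replicate block, a block for the run of library numbers and leaving out each library. Same-numbered libraries deviated together, by correlations over 0.1 in every pair, in KO against WT at day 0 (0.232 to 0.774), KO against WT in SOX17+ cells of day 7 (0.189 to 0.404) and day 12 against day 7 in WT SOX17+ cells (0.132 to 0.219); the labels do not say what a number marks. The block changed no call there.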

Additional observations from a re-analysis of the deposited data

Results flagged for a closer look

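In 8 of 99 groups of 4 libraries tested gene by gene, 1 library stood far from the other 3, where chance gives about 5%. HLA-B was 15.5 CPM in WT day 0 replicate 1 of the mesoderm protocol (19.2 to 19.8 in the other 3) and 5.02 CPM in KO day 4 replicate 4 (2.17 to 2.48). TAP1 was 7.26 CPM in KO day 2 replicate 4 (2.37 to 2.90), 0.532 CPM in KO day 4 replicate 4 (0.0621 to 0.115) and 2.13 CPM in replicate 1 of the WT SOX17- cells of day 7 (1.28 to 1.36). CIITA was 25.8 CPM in replicate 4 of those SOX17- cells (13.8 to 15.7). HLA-DRA was 0.408 CPM in WT day 4 replicate 1 (0 to 0.0615) and 0.228 CPM in KO day 4 replicate 4 (0.115 to 0.124), where each value rests on few reads. KO day 4 replicate 4 was the high library in 3 of these 8 cases.

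The change from day 0 differed between the protocols, by the test of the difference itself, with the values in endoderm minus mesoderm on the log2 scale. At day 2 they were 0.69 for HLA-E, -1.002 for B2M and -1.89 for HLA-DRA. At day 4 they were 2.49 for HLA-B, 1.88 for HLA-C, -1.48 for HLA-E, -2.73 for B2M, 2.95 for TAP1, -2.22 for CD74 and -1.92 for HLA-DPA1. The adjusted p-values stand with these values in the report.

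The single KO library of SOX17- CD43- cells of day 12, which enters no comparison, lay above the 4 KO SOX17+ CD43- libraries of that day in HLA-E (607 CPM, against 344 to 518 CPM) and in CIITA (20.4 CPM, against 16.9 to 20.2 CPM).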

How the results depend on the processing

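No value of the 9 genes or of the pathway genes changed its direction while called under any alternative run. The number of the 9 genes called moved by over 1.5 times with the compared groups fitted alone at day 2 against day 0 in WT mesoderm (5, against 3) and in endoderm minus mesoderm at day 2 (5, against 3). At day 7 against day 4 of endoderm it was 4 without the filter and 2 with DESeq2, against 0. Leaving out 1 library gave 3 to 4 in endoderm at day 2 (5 with all), 0 to 4 in endoderm at day 7 (0 with all), 1 to 3 in the KO SOX17+ cells at day 12 against day 7 (3 with all), 1 to 4 in SOX17+ CD43+ cells against endothelium (4 with all) and 3 to 6 between the CD43+ fractions (5 with all). With 1 SOX17+ CD43+ library left, that library is assumed to vary like the other groups. With the replicate block, 1 call was added, HLA-B in SOX17+ CD43+ cells against endothelium (-0.75, adjusted p = 0.0201; without the block -0.61, adjusted p = 0.116), and 240 other values of the 9 genes kept their side of the threshold; only 3 comparisons showed pairing by number. Among the sorted libraries the replicate numbers do not follow the runs of library numbers in every group: SOX17+ CD43+ replicate 2 (68710) and the SOX17- CD43+ libraries (68702 to 68722) fall in the runs of higher replicate numbers. With the block for those runs, 2 calls were added, HLA-B in SOX17+ CD43+ cells against endothelium (-0.68, adjusted p = 0.0162) and HLA-DRA between the CD43+ fractions (1.39, adjusted p = 0.0327; 1.25, adjusted p = 0.0516 without it). Without the filter the median of all genes moved by 0.107 in the comparison of day 7 with day 4 and by -0.109 in that of endoderm with endothelium. Depth limits TAP1 and HLA-DRA at day 4 and HLA-DRA in late endoderm, where a group held 2 to 13 reads.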

Other observations

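In the single KO library of SOX17- CD43- cells of day 12, CD74 stood at 19.3 CPM, B2M at 224 CPM, HLA-C at 37.98 CPM, HLA-B at 5.14 CPM, TAP1 at 1.97 CPM, HLA-DRA at 2.47 CPM and HLA-DPA1 at 5.64 CPM. CD74 and B2M there, and HLA-B, lay below the range of the 4 KO SOX17+ CD43- libraries of the same day (24.3 to 26.8 CPM, 237 to 264 CPM and 6.94 to 10.6 CPM), and the other 4 genes within it or, for HLA-C, at its upper end.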
